A study of Mus musculus with 6 samples.

Results

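Described here are 33 genes of cholesterol and fatty acid synthesis in sorted mouse haematopoietic stem cells with and without induction of the leukaemia fusion ETV6-RUNX1. They were taken from the deposited table of gene levels by symbol, and each of the 33 symbols matched 1 row and 1 gene ID of the 55471 in the table. The list holds 18 enzymes that build cholesterol from acetyl-CoA, 5 regulators of the sterol-sensing SREBP system, the sterol carrier Stard4, and 9 fatty acid enzymes.

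All 6 libraries came from mice of genotype ETV6-RUNX1, and their cells had been sorted as lineage-negative, Kit-positive, Sca1-positive, CD48-negative and CD150-positive. The 3 uninduced libraries had no doxycycline, and the 3 induced libraries came from mice given doxycycline in food for 2 weeks to switch the fusion on. Every group therefore carries the fusion allele, and no library with doxycycline but without the allele was analysed here, so the drug and the fusion cannot be told apart. Strain, age and the promoter that drives the fusion are not given in the sources used here. Levels are in TPM, a share of each library's transcripts corrected for gene length, so the number of reads behind a value is unknown and counting error cannot be stated.

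Cholesterol is made from acetyl-CoA through mevalonate, isoprenoid units, squalene and lanosterol, and fatty acids are made from the same acetyl-CoA by carboxylation, chain building, elongation and desaturation. Many of these enzymes are targets of the SREBP transcription factors, which are held in the endoplasmic reticulum by Scap and the Insig proteins when sterol is plentiful and are released when it falls. Dividing cells need both products for new membrane, and mevalonate also supplies the isoprenoid tails of small GTPases and of coenzyme Q. Insig1 and Stard4 are themselves known SREBP targets.

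Across the 13470 genes tested, the deposited scale was offset between the groups: the median log2 change, induced minus uninduced, was -0.35. Nuclear protein-coding genes held 26.6% to 32.9% of the TPM in uninduced libraries and 20.5% to 23.2% in induced libraries. After median-of-ratios scaling, which centres the typical gene, the median change was -0.0027, a shift of 0.34. Changes are on the deposited scale unless the scaled value is named. Cell cycle markers moved with the groups: 15 of the 16 listed were called lower in induced libraries, and 13 after scaling. Ccnb1 and Bub1 had induced means under 1 TPM and were tested only because of their uninduced level. The summed level of the list was 535 to 634 TPM in uninduced and 116 to 154 TPM in induced libraries. The part of these markers in the results below was not tested.

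Genes of each biochemical arm were called lower in the induced libraries on the deposited scale, but after median-of-ratios scaling no mevalonate gene and no SREBP regulator was. None was called higher on either scale. Of the 33 genes, 30 reached a mean of 1 TPM over the 6 libraries and were tested, and 12 of the 30 were called lower at a limma adjusted p under 0.05. Among all tested genes 10.2% were called lower, 1.29% higher and 11.5% in either direction. After median-of-ratios scaling, 6 of the 30 were called lower and 0 higher, where 3.21% of all tested genes were called lower, 2.84% higher and 6.05% in either direction. The 6 were Sqle, Cyp51, Stard4, Fasn, Scd2 and Fads2. The median change of the 30 was -1.13 on the deposited scale and -0.79 after scaling.

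In 20 of the 30 tested genes the 3 induced values lay below all 3 uninduced values, against 28.2% of all tested genes, and in 0 they lay above, against 4.83% of all tested genes. After median-of-ratios scaling these numbers were 15 and 1, against 14.5% and 13.5% of all tested genes. Acat2 and Tm7sf2 had induced means under 1 TPM and were tested only because of their uninduced level. In bulk libraries of this kind, fewer cells that make a transcript and less transcript per cell cannot be told apart. No label states that the libraries of a group came from separate mice, so p-values measure the spread between these libraries, which may be technical. The count of 12 was 6 without uninduced replicate 2, 7 without induced replicate 1 and 7 without induced replicate 3. It was 8 without induced replicate 2, 10 without uninduced replicate 3 and 11 without uninduced replicate 1.

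**Figure D1:**
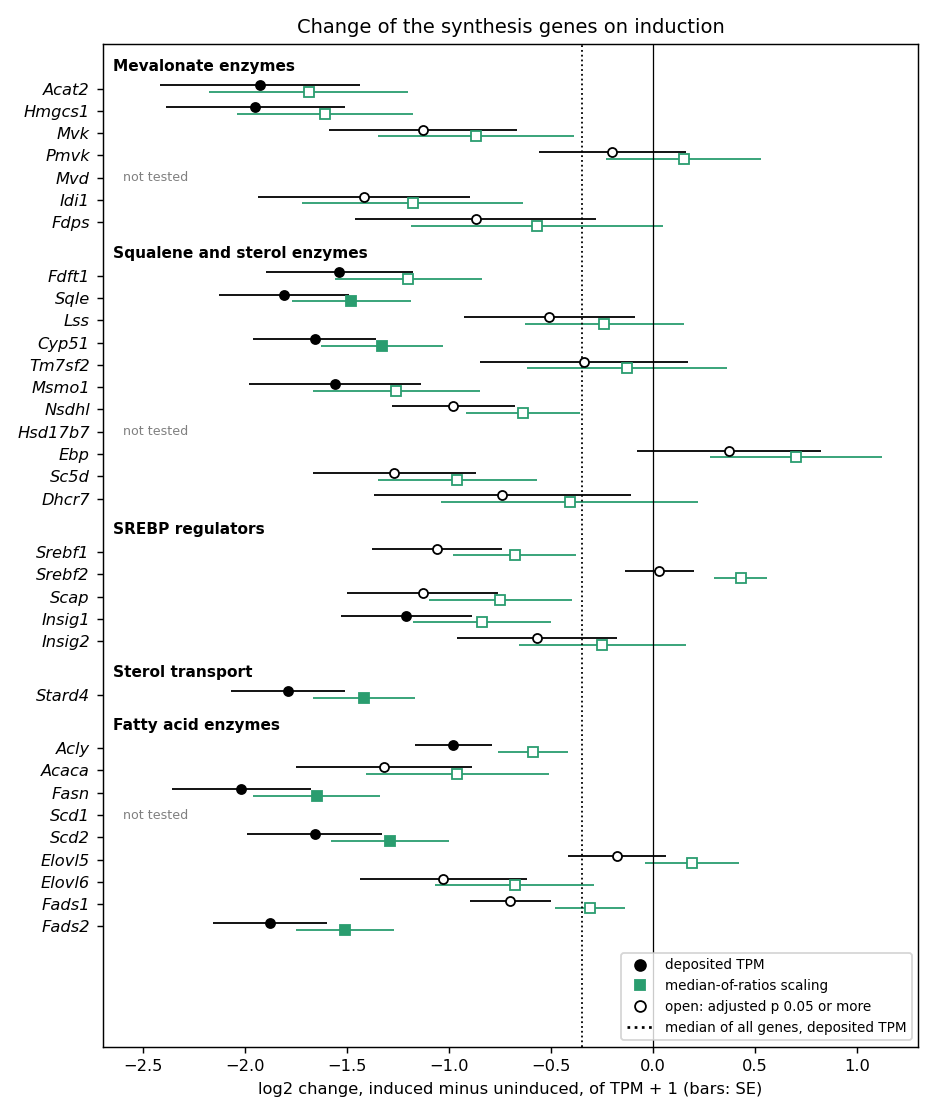
Log2 change of TPM + 1, induced minus uninduced, for the 30 tested genes by role, on the deposited scale (circles) and after median-of-ratios scaling (squares), with SE bars and filled symbols for an adjusted p under 0.05. The 12 filled circles and 6 filled squares all lie left of 0, and Srebf2 and Ebp are the genes right of 0 on both scales.

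The bases just before the start of these genes are shown next, because many of the enzymes are known targets of factors that bind near gene starts. RefSeq promoters on GRCm38.p6 were found for 26 of the 33 genes, among them 8 of the 12 called lower. Scd1, Scd2, Fads1, Fdps, Fdft1, Sqle and Stard4 had no entry in the promoter table. The 250 bases before the start were searched on both strands for the sterol element TCACNCCAC, the CCAAT box of the factor NF-Y (CCAAT), the E-box CACGTG and the GC box GGGCGG. RefSeq and GENCODE, whose gene spans are printed below, can place a start differently. Of the 8 called genes with a promoter, Hmgcs1, Fasn and Acly have a window wholly outside the GENCODE span, and these 3 are written here 5′ to 3′ in the direction of the gene, ending at the base before the RefSeq start. Capitals mark the sterol element, CCAAT boxes (ATTGG on the opposite strand) and E-boxes.
Hmgcs1: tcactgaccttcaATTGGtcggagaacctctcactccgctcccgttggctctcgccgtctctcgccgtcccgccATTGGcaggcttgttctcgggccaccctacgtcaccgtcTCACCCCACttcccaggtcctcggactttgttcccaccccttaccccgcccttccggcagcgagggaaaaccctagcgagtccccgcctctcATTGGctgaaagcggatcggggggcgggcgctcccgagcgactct
Fasn: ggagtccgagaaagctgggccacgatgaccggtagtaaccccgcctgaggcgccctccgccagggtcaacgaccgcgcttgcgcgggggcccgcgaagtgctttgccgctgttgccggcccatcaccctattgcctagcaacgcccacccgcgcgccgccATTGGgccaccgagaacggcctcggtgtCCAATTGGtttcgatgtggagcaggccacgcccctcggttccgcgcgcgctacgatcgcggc
Acly: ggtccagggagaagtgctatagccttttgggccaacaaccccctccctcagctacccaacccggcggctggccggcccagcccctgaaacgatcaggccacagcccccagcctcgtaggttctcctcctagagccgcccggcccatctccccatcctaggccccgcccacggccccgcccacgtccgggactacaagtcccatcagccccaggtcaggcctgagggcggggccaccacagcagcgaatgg

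These stretches lie at chr13:119690101-119690350 (plus strand) for Hmgcs1, chr11:120824548-120824797 (minus) for Fasn and chr11:100528001-100528250 (minus) for Acly. Hmgcs1 held the sterol element, from 137 to 129 bases before the RefSeq start, and 3 CCAAT boxes. Fasn also held 3 CCAAT boxes, of which those at 62 and 59 bases before the start overlap in the run CCAATTGG. Acly held none of the marked motifs in this window. The windows of the other called genes reach into the GENCODE span, by 22 of 250 bases for Acat2, 49 for Cyp51, 49 for Insig1, 214 for Msmo1 and 243 for Fads2. They are not printed, and a match in them may lie within the gene by GENCODE.

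Over all member promoters, set by RefSeq starts, 21 of 34 (61.8%) held a CCAAT box, compared with 33.8% of the 32851 promoters in the table and 35.8% of the 11189 promoters of tested genes. By gene this was 20 of 26 members, and 5 of the 8 called lower. The sterol element was in 1 of 34 member promoters (2.94%) and in 1.05% of all promoters. An E-box was in 6 of 34 (17.6%), in 6.02% of all promoters and in 8.48% of those of tested genes, and in 1 of the 8 called lower. A GC box was in 24 of 34 (70.6%), in 32.7% of all promoters and in 58.2% of those of tested genes. These are letter matches in a short window, and the window does not cover elements farther from the start.

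In the mevalonate arm, which runs from acetyl-CoA to farnesyl diphosphate, 2 of 6 tested genes fell, Hmgcs1 and Acat2, and 0 were called by limma after median-of-ratios scaling (all tested genes: 10.2% and 3.21% lower). Hmgcs1, the HMG-CoA synthase (ENSMUSG00000093930, chr13:119690379-119708260), stood at 20.6, 15 and 5.92 TPM in the uninduced libraries and 2.06, 3.59 and 1.98 TPM in the induced libraries. The groups did not overlap, although uninduced replicate 3 lay well under the other uninduced libraries. Its mean TPM was 5.44-fold lower. The fitted change, a difference of mean log2(TPM + 1) and not the log2 of that fold, was -1.95 (SE 0.44, limma adjusted p 0.0225), and -1.61 after median-of-ratios scaling (adjusted p 0.0626). The Hmgcs1 call was kept only without uninduced replicate 3. Leaving out any other library gave adjusted p up to 0.0797, and the change ranged from -2.42 to -1.60 over the 6.

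Acat2, the cytosolic thiolase that joins acetyl-CoA units (ENSMUSG00000023832, chr17:12942890-12960747), stood at 2.51, 7.49 and 5.48 TPM in uninduced and 0.224, 1.32 and 0.226 TPM in induced libraries. All 3 induced values lay below the uninduced ones, with a change of -1.93 (SE 0.49, limma adjusted p 0.0323) and -1.69 after median-of-ratios scaling (adjusted p 0.0820). The Acat2 call was kept only without uninduced replicate 1, with adjusted p up to 0.110 and changes of -2.29 to -1.65 over the 6 libraries left out. Of the 50-base windows of its transcript 45.9% also occur in Acat3, a close copy listed at 0 to 0.268 TPM, so reads could have been assigned to either gene.

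The other mevalonate genes did not pass. Idi1, which isomerises isopentenyl diphosphate, had 4.05, 6.21 and 5.47 TPM in uninduced and 2.22, 0.0263 and 2.71 TPM in induced libraries. Its groups did not overlap, but induced replicate 2 was near 0, and the change of -1.42 (SE 0.52) had a limma adjusted p of 0.107. Without that library the change was -0.84 (adjusted p 0.271), and after median-of-ratios scaling -1.18 (adjusted p 0.242). Of its windows 21.3% also occur in other genes, mainly Gm13502. That gene model was at 4.65, 3.84 and 2.11 TPM in uninduced and 1.8, 4.77 and 2.72 TPM in induced libraries. Its highest value was in induced replicate 2, where Idi1 was near 0, so reads could have been assigned to either, which was not tested. Mvk, mevalonate kinase, had 3.39, 3.63 and 6.79 TPM against 3.02, 0.562 and 1.39 TPM, without overlap on the deposited scale (change -1.13, adjusted p 0.143; -0.87 after scaling, adjusted p 0.337). Fdps, the farnesyl diphosphate synthase, overlapped at 2.35 to 12.3 and 1.12 to 6.20 TPM, and 86.4% of its 50-base windows also occur in 8 other genes, mainly Gm43738, so its level is uncertain. Pmvk, phosphomevalonate kinase, overlapped at 5.74 to 13.7 and 5.24 to 8.40 TPM, and its change of -0.20 became 0.15 after median-of-ratios scaling. Mvd, the mevalonate diphosphate decarboxylase, was too low to test, at 0.584, 2.38 and 1.44 TPM in uninduced and 0.718, 0 and 0.159 TPM in induced libraries.

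In the squalene and sterol arm, 4 of 10 tested genes fell, Sqle, Cyp51, Fdft1 and Msmo1, and 2 after median-of-ratios scaling, Sqle and Cyp51 (all tested genes: 10.2% and 3.21% lower). Sqle, the squalene epoxidase and a control point of the pathway (ENSMUSG00000022351, chr15:59315077-59331192), stood at 10.2, 16.7 and 11.5 TPM in uninduced and 2.39, 3.00 and 3.24 TPM in induced libraries. Every induced library lay far under the lowest uninduced one. The log2 change was -1.81 (SE 0.32, limma adjusted p 0.00726) and -1.48 after median-of-ratios scaling (adjusted p 0.0222). Cyp51, the lanosterol demethylase (ENSMUSG00000001467, chr5:4081145-4104746), stood at 9.68, 10.1 and 13.0 TPM against 2.69, 2.49 and 3.12 TPM. It had narrow spread in both groups, with a change of -1.66 (SE 0.30, limma adjusted p 0.00905) and -1.33 after scaling (adjusted p 0.0345). Both calls held without each library in turn.

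Fdft1, the squalene synthase that commits farnesyl diphosphate to sterols (ENSMUSG00000021273, chr14:63145150-63179578), stood at 13.3, 10.7 and 9.09 TPM in uninduced and 1.78, 4.81 and 3.28 TPM in induced libraries. The groups were well apart, with a change of -1.54 (SE 0.36, limma adjusted p 0.0243) and -1.20 after median-of-ratios scaling (adjusted p 0.0882). Msmo1, the sterol methyl oxidase (ENSMUSG00000031604, chr8:64718139-64733792), stood at 4.03, 11.6 and 9.63 TPM against 1.52, 2.08 and 2.36 TPM. Uninduced replicate 1 was the lowest of its group yet above all induced libraries, and the change was -1.56 (SE 0.42, limma adjusted p 0.0396), or -1.26 after scaling (adjusted p 0.114). The Fdft1 call was kept without uninduced replicate 3 or induced replicate 2, and lost without each of the others, with adjusted p up to 0.0827. The Msmo1 call was kept only without uninduced replicate 1, with adjusted p up to 0.126 without the others.

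Nsdhl, a sterol dehydrogenase, was even within both groups, at 7.88, 8.99 and 8.38 TPM in uninduced and 3.14, 4.27 and 3.99 TPM in induced libraries. Its groups did not overlap on either scale, but its change of -0.98 (SE 0.30) had a limma adjusted p of 0.0617, or -0.64 and 0.234 after median-of-ratios scaling. Sc5d, the lathosterol desaturase, likewise did not overlap, at 9.72, 4.38 and 4.46 TPM against 2.12, 2.14 and 1.32 TPM (change -1.27, limma adjusted p 0.0698; -0.96 after scaling, adjusted p 0.196). Ebp, the sterol isomerase, was among the few with a higher induced mean, at 2.91, 8.72 and 5.32 TPM against 5.36, 4.91 and 12.6 TPM. Its groups overlapped, and its change of 0.37 (SE 0.45) was -0.02 without induced replicate 3. Dhcr7, which makes cholesterol in the last step of a branch, spread over 4.04 to 17.9 TPM in uninduced and 1.78 to 13.7 TPM in induced libraries. Lss, the lanosterol synthase, overlapped at 1.41 to 3.66 and 1.18 to 1.69 TPM, and Tm7sf2, a sterol reductase, at 0.622 to 3.30 and 0.585 to 1.45 TPM. Hsd17b7, a sterol ketone reductase, was too low to test, at 0.255 to 0.803 and 0.317 to 0.655 TPM.

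**Figure D2:**
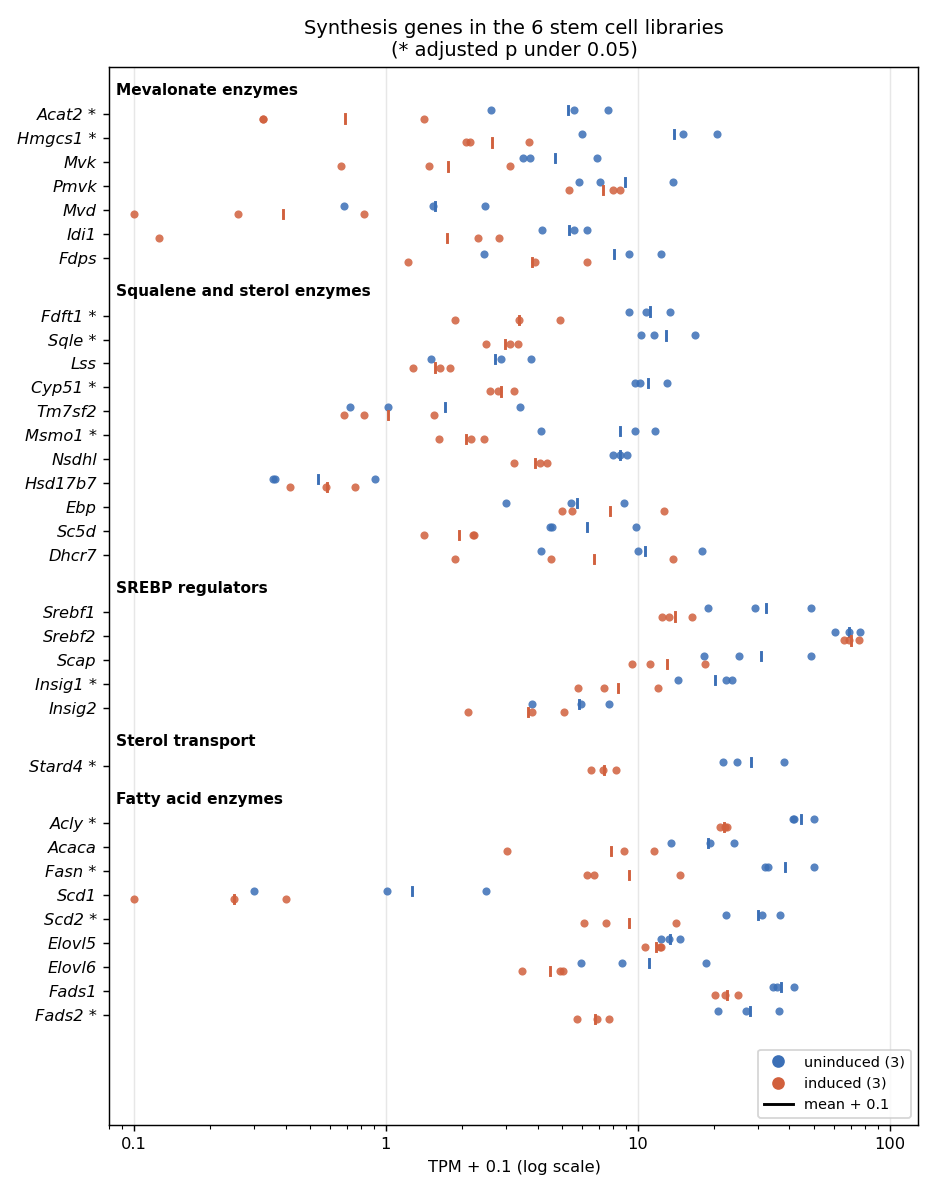
TPM + 0.1 on a log axis for each of the 33 genes in the 3 uninduced and 3 induced libraries, grouped by role, with a bar at each group's mean and an asterisk for an adjusted p under 0.05. Induced points lie left of all uninduced points for 20 genes, while Srebf2 and Elovl5 lie at nearly the same level in both groups.

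Among the 5 SREBP regulators, 1 fell and none rose, and 0 were called by limma after median-of-ratios scaling. With 5 genes, 1 call is little beside the 10.2% of all tested genes called lower. Insig1, the sterol-induced retention protein that is also an SREBP target (ENSMUSG00000045294, chr5:28071363-28078662), stood at 14.3, 23.6 and 22.3 TPM in uninduced and 5.69, 11.9 and 7.24 TPM in induced libraries. The groups were apart on the deposited scale and overlapped after median-of-ratios scaling. Its change was -1.21 (SE 0.32, limma adjusted p 0.0402), and -0.84 after scaling (adjusted p 0.191). The Insig1 call was kept without uninduced replicate 1 or induced replicate 2 and lost without each of the others, with adjusted p up to 0.122. Insig2, its constitutive relative, had 3.72, 5.87 and 7.59 TPM against 4.98, 3.70 and 2.01 TPM, and its groups overlapped (change -0.57, limma adjusted p 0.381; -0.25 after scaling, adjusted p 0.781).

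Srebf2, which encodes the SREBP2 factor of sterol genes, was the most abundant member, at 69.1, 76.3 and 60.4 TPM in uninduced and 69.0, 65.5 and 75.2 TPM in induced libraries. Those values overlap throughout, with a change of 0.03 (SE 0.17, limma adjusted p 0.928). Relative to the typical gene its induced level was higher without overlap, by 0.43 after median-of-ratios scaling (adjusted p 0.0931), and it was called higher after rescaling to nuclear protein-coding genes (0.46, adjusted p 0.0444). Srebf1, which encodes SREBP1, the factor of fatty acid genes, had 18.9, 48.7 and 29.0 TPM against 13.2, 12.4 and 16.3 TPM. Its induced values lay below the uninduced ones, with a change of -1.06 (SE 0.32, limma adjusted p 0.0624) and -0.68 after scaling, where the groups overlapped. Without uninduced replicate 1 it passed (-1.38, adjusted p 0.0315), and without uninduced replicate 2, its highest library, the change was -0.72. Whether Srebf1 and Srebf2 differ from each other was not tested.

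Scap, the escort of the SREBP factors, had 48.8, 25.2 and 18.2 TPM in uninduced and 9.36, 11.1 and 18.3 TPM in induced libraries. Uninduced replicate 3 and induced replicate 3 were at the same level, so the groups overlapped (change -1.13, SE 0.37, limma adjusted p 0.0802; -0.75 after scaling, adjusted p 0.253). Without uninduced replicate 3, Scap passed at -1.43 (adjusted p 0.0478), and without uninduced replicate 1, its highest library, the change was -0.74 (adjusted p 0.222).

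Stard4, which carries cholesterol between membranes (ENSMUSG00000024378, chr18:33199355-33213862), had one of the firmest calls. Its level was 21.7, 38.1 and 24.6 TPM in uninduced and 6.42, 7.16 and 8.09 TPM in induced libraries. The induced libraries were close together and all far under the uninduced ones. The log2 change was -1.79 (SE 0.28, limma adjusted p 0.00487) and -1.42 after median-of-ratios scaling (adjusted p 0.0142). It passed under each of the 17 alternatives, as did Sqle, Fasn and Fads2.

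In the fatty acid arm, 4 of 8 tested genes fell, Fasn, Fads2, Scd2 and Acly, and after median-of-ratios scaling all but Acly (all tested genes: 10.2% and 3.21% lower). Fasn, the fatty acid synthase (ENSMUSG00000025153, chr11:120805846-120824547), stood at 31.9, 50 and 32.9 TPM in uninduced and 6.58, 6.16 and 14.6 TPM in induced libraries. Induced replicate 3 was more than double the other induced libraries and still under every uninduced one. Its change of -2.02 (SE 0.34, limma adjusted p 0.00624) became -1.65 after median-of-ratios scaling (adjusted p 0.0176). Acly, which makes cytosolic acetyl-CoA from citrate and so feeds both pathways (ENSMUSG00000020917, chr11:100476353-100528000), stood at 41.2, 49.8 and 41.6 TPM against 21.1, 22.4 and 22.1 TPM. The induced libraries were nearly identical, with a 2.02-fold lower mean and a change of -0.98 (SE 0.19, limma adjusted p 0.0124). After scaling the change was -0.59 and the call was lost (adjusted p 0.0799), though the groups still did not overlap.

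Acaca, the carboxylase that commits acetyl-CoA to fatty acids, had 19.2, 13.5 and 24.1 TPM in uninduced and 2.93, 8.68 and 11.5 TPM in induced libraries. The groups did not overlap on the deposited scale, but the spread was wide, and the change of -1.32 (SE 0.43) had a limma adjusted p of 0.0751. After median-of-ratios scaling they overlapped (-0.96, adjusted p 0.260). Without induced replicate 1, its lowest library, the change was -0.82 (adjusted p 0.180). Of its 50-base windows 52.6% also occur in the gene model Gm5182, which was at 4.02 to 4.37 TPM in uninduced and 1.08 to 1.87 TPM in induced libraries, so reads may have been split between them. The levels of both were lower in induced libraries.

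Among the desaturases, Fads2, which starts the synthesis of long polyunsaturated fatty acids (ENSMUSG00000024665, chr19:10062765-10101746), stood at 26.7, 36.1 and 20.8 TPM in uninduced and 5.66, 6.80 and 7.57 TPM in induced libraries. The groups were far apart, with a change of -1.88 (SE 0.28, limma adjusted p 0.00415) and -1.51 after median-of-ratios scaling (adjusted p 0.0101). Its neighbour Fads1, the next desaturase of that route (chr19:10182888-10196877), had 41.5, 35.5 and 34.2 TPM against 22.1, 20.2 and 25.0 TPM. The Fads1 groups did not overlap on either scale, and the change of -0.70 (SE 0.20) had a limma adjusted p of 0.0518. With library weights and with a minimum mean of 5 TPM, Fads1 passed. After median-of-ratios scaling its change was -0.31 (adjusted p 0.343). Whether the changes of these 2 neighbours differ was not tested.

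Scd2, a stearoyl-CoA desaturase that makes monounsaturated fatty acids (ENSMUSG00000025203, chr19:44293674-44306864), stood at 31.1, 36.5 and 22.2 TPM in uninduced and 5.99, 7.38 and 14.1 TPM in induced libraries. All induced values lay below the uninduced ones, with a change of -1.66 (SE 0.33, limma adjusted p 0.0131) and -1.29 after median-of-ratios scaling (adjusted p 0.0379). The Scd2 call was lost without uninduced replicate 2 (adjusted p 0.0525) and without induced replicate 2 (adjusted p 0.0579). Its relative Scd1 (chr19:44394455-44407879), the main form in liver, was too low to test, at 0.911, 2.40 and 0.201 TPM against 0.300, 0.149 and 0 TPM. Of the 50-base windows of Scd2, 4.01% also occur in other genes, mainly Scd1.

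Neither elongase passed. Elovl5, which lengthens polyunsaturated chains, had 12.3, 13.2 and 14.6 TPM in uninduced and 12.3, 10.6 and 12.1 TPM in induced libraries. The change was -0.18 (SE 0.24, limma adjusted p 0.663), and 0.19 after median-of-ratios scaling. Elovl6, which lengthens the palmitate made by Fasn, had 5.86, 18.6 and 8.56 TPM against 3.36, 4.95 and 4.82 TPM. Its groups did not overlap on the deposited scale, but uninduced replicate 2 stood far above the rest, and the change of -1.03 (SE 0.41) had a limma adjusted p of 0.133. Without that library the change was -0.61 (adjusted p 0.338), and after median-of-ratios scaling -0.68 (adjusted p 0.356).

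Summing genes within a library after rescaling it so that nuclear protein-coding genes alone make up the TPM total (coding-scaled TPM) gives a level that does not depend on how much of a library is other RNA. The 18 mevalonate and sterol enzymes together held 386, 416 and 470 coding-scaled TPM in uninduced and 210, 194 and 293 coding-scaled TPM in induced libraries. The 9 fatty acid enzymes held 706, 777 and 749 coding-scaled TPM against 365, 425 and 481 coding-scaled TPM. Neither pair of groups overlapped, and the means were 1.83-fold and 1.76-fold lower. The 5 regulators held 519, 546 and 517 coding-scaled TPM against 464, 509 and 513 coding-scaled TPM. These groups did not overlap either, but the means differed only 1.06-fold, and Srebf2 made up the largest part of that sum. Induced replicate 3 had the highest sum in both enzyme groups among induced libraries. Its summed cell cycle markers were also the highest of that group, at 663 coding-scaled TPM beside 567 and 564. The uninduced libraries held 1960, 1929 and 2011 coding-scaled TPM of these markers. Among them, replicate 3 had the highest mevalonate and sterol sum and the highest marker sum. Replicate 2 had the highest fatty acid sum and the lowest marker sum. Whether the sums vary together was not tested.

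**Figure D3:**
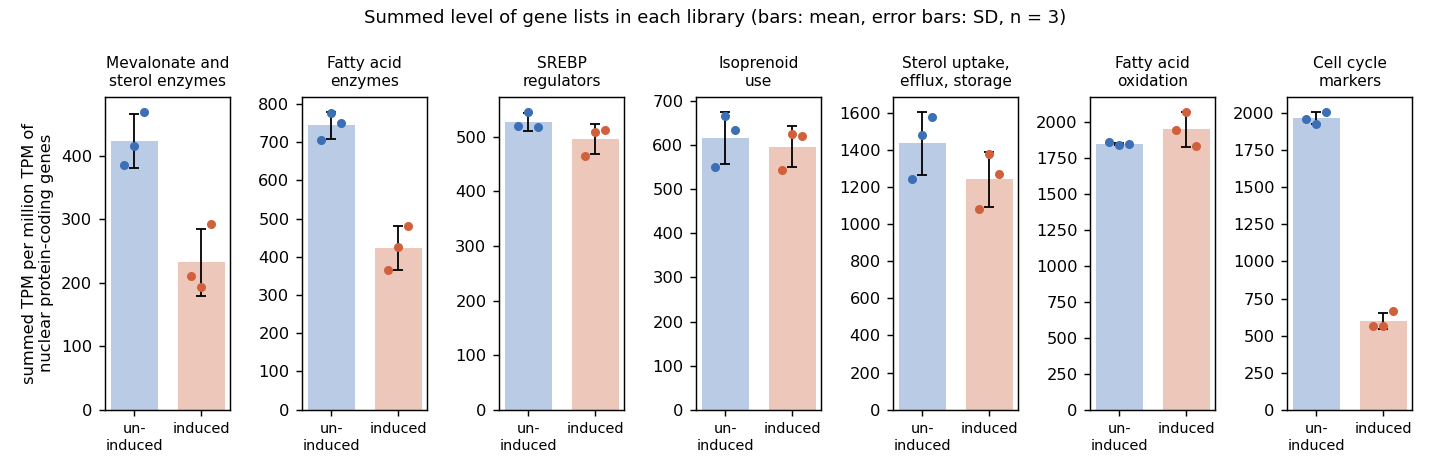
Summed TPM of 7 gene lists, rescaled so that nuclear protein-coding genes alone make up the TPM total, with 1 point per library, bars at the mean and SD error bars (n = 3 per group). Both enzyme lists, the SREBP regulators (1.06-fold in the mean) and the cell cycle markers are lower in all 3 induced libraries. The isoprenoid use, sterol uptake and fatty acid oxidation lists overlap.

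Other genes of these pathways were read from the same fit. Of 8 further genes of sterol synthesis and SREBP processing, 5 were tested, with 1 called lower and 0 higher on both scales. Among all tested genes 10.2% were called lower and 1.29% higher on the deposited scale, and 3.21% and 2.84% after median-of-ratios scaling. With 5 genes, 1 call is little beside these shares. Their median change was -0.59 on the deposited scale and -0.21 after median-of-ratios scaling, beside -1.12 and -0.80 for the 10 tested squalene and sterol enzymes among the members. The difference between these lists was not tested.

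For sterol uptake, efflux and storage, 17 of 20 genes were tested, of which 2 fell and 1 rose, and after median-of-ratios scaling 2 were called lower and 2 higher. Of all tested genes 10.2% were called lower and 1.29% higher on the deposited scale. In the scaled fit 3.21% of them were lower and 2.84% higher. The shares of the lists given here and below are read against these. On the deposited scale, 2 of 17 called lower is a share near 10.2%. Apoe, a lipoprotein component, stood at 167, 238 and 186 TPM in uninduced and 60.4, 89.2 and 61.1 TPM in induced libraries, a change of -1.48 (SE 0.21, limma adjusted p 0.00366; -1.09 after median-of-ratios scaling, adjusted p 0.0210). Nceh1, which frees cholesterol from stored esters, was higher, at 18.0, 24.2 and 19.2 TPM against 35.9, 31.5 and 38.9 TPM (change 0.77, SE 0.21, limma adjusted p 0.0452; 1.16 after scaling, adjusted p 0.00972). Vldlr, a lipoprotein receptor, had 2.21, 3.05 and 1.10 TPM against 4.78, 6.09 and 5.64 TPM, and was called higher only after median-of-ratios scaling (1.41, limma adjusted p 0.0491; 1.10 and 0.0893 on the deposited scale). For these 3 genes the groups did not overlap. Leaving out any library lost the Nceh1 call, with adjusted p from 0.0505 to 0.130, and none lost the Apoe call.

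Isoprenoid-using genes had 2 of 14 called lower, a share near the 10.2% of all tested genes, Rabggtb (change -1.01, limma adjusted p 0.0376), a subunit of the enzyme that attaches lipid tails to Rab proteins, and Coq2 (change -0.82, limma adjusted p 0.0451), an enzyme of coenzyme Q synthesis. Further fatty acid synthesis genes had 2 of 11 tested called lower, Hsd17b12 (change -1.06, limma adjusted p 0.0195) and Tecr (change -0.70, limma adjusted p 0.0301), both of the elongation cycle that works with the Elovl enzymes. None of these 4 calls held after median-of-ratios scaling, and the Coq2 call was lost without any one of the 6 libraries (adjusted p 0.0662 to 0.151). The Rabggtb call was kept only without induced replicate 3 (adjusted p up to 0.114), the Tecr call only without uninduced replicate 2 (up to 0.101), and the Hsd17b12 call only without uninduced replicate 2 or induced replicate 3 (up to 0.0771). Of 12 tested genes for acyl-CoA activation and lipid assembly, 0 passed in limma.

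Fatty acid oxidation, the opposing route, had 1 of 18 tested genes called lower, the electron carrier subunit Etfb (change -0.77, limma adjusted p 0.0246, lost after median-of-ratios scaling at 0.295 and with adjusted p up to 0.0867 in the fits that omit one library). The median change of the 18 was -0.35, the same as that of all tested genes, beside -1.17 for the 8 tested fatty acid synthesis members. The summed oxidation level was 492 to 605 TPM in uninduced and 426 to 428 TPM in induced libraries on the deposited scale, without overlap. After coding scaling it overlapped, at 1850 ± 9.85 coding-scaled TPM in uninduced and 1952 ± 121 coding-scaled TPM in induced libraries (SD, n = 3 each). The medians are descriptions, and the difference between the lists was not tested.

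**Figure D4:**
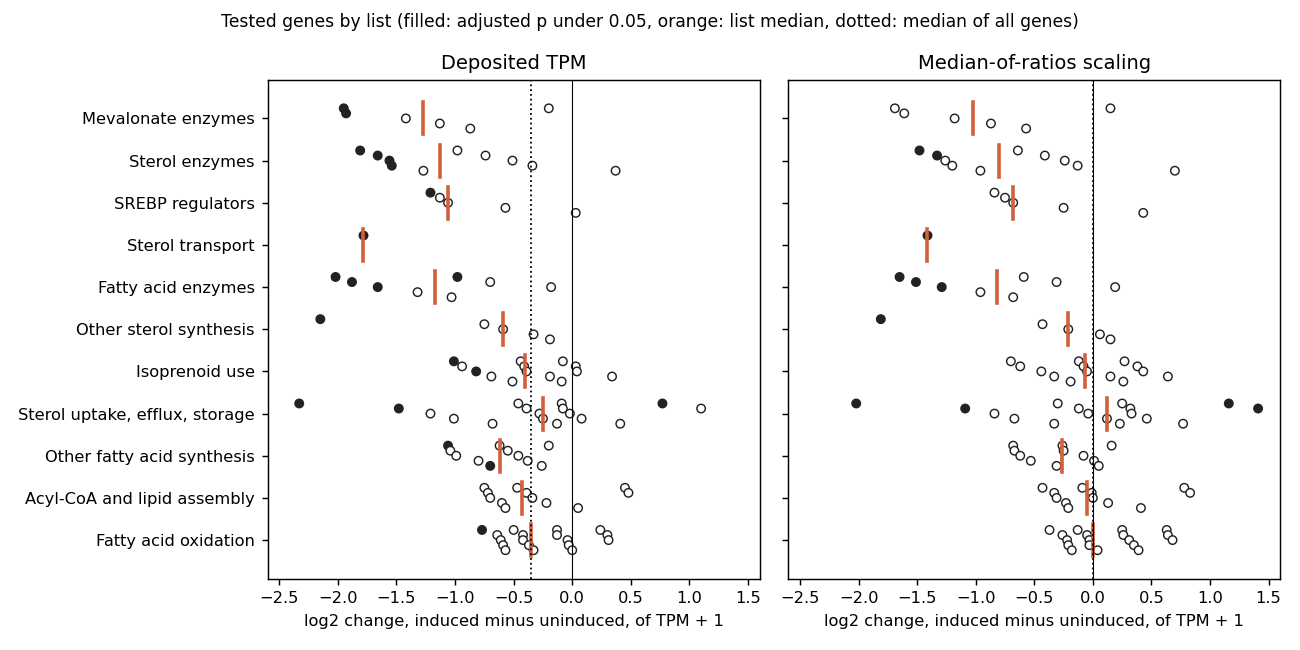
Log2 change of TPM + 1 for each tested gene of the 5 member groups and of 6 lists of other lipid genes, on the deposited scale (left) and after median-of-ratios scaling (right), with filled points for an adjusted p under 0.05. The member groups have medians of -1.06 to -1.79 on the left, and fatty acid oxidation lies around the dotted median of all genes.

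Markers of other cells that a stem cell gate could hold were read beside these results. Ranges are given first on the deposited scale and then in coding-scaled TPM. Calls in the marker lists, here and below, are read against all tested genes. Of those, 10.2% were lower and 1.29% higher on the deposited scale. The scaled fit had 3.21% lower and 2.84% higher. Erythroid markers summed to 400 to 481 TPM in uninduced and 644 to 747 TPM in induced libraries (1445 to 1611 and 3133 to 3354 coding-scaled), with 6 calls higher and 1 lower among 10 tested. Median-of-ratios scaling gave 6 and 0. Megakaryocyte markers summed to 114 to 147 and 123 to 136 TPM (382 to 449 and 587 to 598 coding-scaled), with 2 of 7 tested higher and 1 lower, and 2 and 0 after scaling. Myeloid markers summed to 288 to 353 and 271 to 314 TPM (1058 to 1081 and 1281 to 1429 coding-scaled), with 1 of 9 higher and 1 lower, and 2 and 0 after scaling. Stem cell markers summed to 565 to 729 and 680 to 748 TPM (2123 to 2215 and 3202 to 3400 coding-scaled), and of the 11 of 12 that reached the filter 4 were called higher and 2 lower, and 5 and 1 after scaling. In coding-scaled TPM these 4 sums were thus higher in every induced library, while on the deposited scale the megakaryocyte, myeloid and stem cell sums overlapped. On the deposited scale, 1 call lower among 10 erythroid, 7 megakaryocyte or 9 myeloid markers is little beside the 10.2% of all tested genes. The sums do not stand for each marker. On the deposited scale 7 of 9 tested myeloid and 5 of 7 tested megakaryocyte markers had negative changes, with medians of -0.64 and -0.46. After median-of-ratios scaling these medians were -0.28 and -0.1. Of the tested erythroid and stem cell markers, 7 of 10 and 7 of 11 had positive changes on the deposited scale.

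Lymphoid markers summed to 10.4 to 25.7 TPM in uninduced and 3.11 to 3.85 TPM in induced libraries (34.9 to 78.1 and 15.1 to 17.5 coding-scaled), with 1 of 2 tested lower on both scales. That one was Nkg7, a gene of cytotoxic lymphocytes, at 6.21, 15.8 and 5.84 TPM in uninduced libraries and listed at 0 in each induced library, so it was tested only because of its uninduced level. The other was Cd79b, a B-cell receptor subunit, at 4.21, 9.86 and 7.06 TPM against 3.85, 3.11 and 3.59 TPM, which did not pass. Its partner Cd79a and Pax5, Ebf1, Il7r, Dntt, Cd3e, Cd3g and Ms4a1 were at 0 in all 6 libraries.

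Stromal and endothelial markers summed to 15.7 to 31.8 and 30.4 to 40.3 TPM (52.7 to 120 and 138 to 196 coding-scaled), with 0 of 4 tested called by limma on the deposited scale and 1 called higher after median-of-ratios scaling. That gene was Pecam1, an adhesion molecule of endothelium that blood cells also carry, at 13.7, 21.0 and 23.5 TPM against 28.5, 37.9 and 36.0 TPM (1.19, limma adjusted p 0.0325; 0.81 and 0.0661 on the deposited scale). Col1a2 and Pdgfrb were low and did not pass, at 0.404 to 3.57 and 0.755 to 4.21 TPM in uninduced and 0.0770 to 0.565 and 0.681 to 1.33 TPM in induced libraries, and Lepr and Col1a1 were at 0. Adipocyte markers summed to 0.312 to 1.65 and 1.02 to 2.94 TPM, none of the 6 listed reached the filter, and Adipoq, Plin1, Cidec and Lep were at 0 in all libraries. Nkg7, Cd79b, Pecam1, Col1a2, Pdgfrb and Vldlr were named after their values were seen. The part of these lists in the lower levels of synthesis genes was not tested.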

How the data were processed

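Total RNA of sorted stem cells was made into stranded low-input libraries and sequenced as paired reads, per the labels' protocols. The submitters' processing notes name bcl2fastq, HISAT2, StringTie, DESeq2 and the build GRCm38, without versions or roles, and the annotation release is not given in the sources used here. The authors deposited 1 table of TPM, with 1 column per library. TPM divides by gene length and by the library total, so a rise of some abundant RNAs lowers the values of all others, and depth is not kept.

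Rows were summed per gene ID (60496 rows, 55471 IDs), and the 33 members have 1 row each. The fit took genes averaging 1 TPM or more over the 6 libraries and was made on log2(TPM + 1), which understates changes of low genes, with limma 3.58.1 in R 4.3.3 (moderated variance with a trend, two-sided, all 6 libraries, Benjamini-Hochberg over 13470 genes, threshold 0.05). Positions are from GENCODE on GRCm38. The fit was tested on simulated data with known changes. The 50-base window check compared member transcripts with those of all other genes.

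Alternatives were 17: pseudocounts, filters, 3 scalings, variance trend, library weights, a replicate block alone and with scaling, and leaving out each library. The members and lists were chosen with earlier results of these data known. Members called on either scale are given with each library's value. From each other lipid list, up to 4 called genes without overlap are named by size of change, and some genes the rule would name are not reported here. With 3 libraries a group, no group was large enough for an outlier test.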

Additional observations from a re-analysis of the deposited data

How the results depend on the processing

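The count of 12 members called was 6 without the filter on low values, 6 after median-of-ratios scaling, 6 after quantile normalization and 6 to 11 over the 6 fits that each omit one library. All those calls were lower. After rescaling to nuclear protein-coding genes 7 were lower and Srebf2 was higher (8 in all). The 1549 genes called in all became 752 without the filter, 815 after median-of-ratios scaling (433 lower, 382 higher), 814 after quantile normalization (440 and 374), 944 after rescaling to nuclear protein-coding genes (479 and 465), 767 without the variance trend, and 611 to 1276 over the fits that omit one library, beside 1375 lower and 174 higher as reported. Without the filter 23013 genes were tested, and the cause of the other differences was not tested.

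With the replicate block, 10 members and 902 genes were called, and 4 members and 456 genes with the replicate block and median-of-ratios scaling. Same-numbered libraries share only a number: their residuals had a mean correlation of 0.0078, and 1 of 3 numbers correlated best with its own partner.

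Pmvk changed sign to 0.148 after median-of-ratios scaling, with and without the block, 0.138 after quantile normalization, 0.18 after coding-gene rescaling and ranged from -0.427 to 0.136 over the fits that omit one library. Elovl5 changed sign to 0.19 after median-of-ratios scaling, with and without the block, 0.18 after quantile normalization and 0.224 after coding-gene rescaling. Over the same fits Ebp ranged from -0.019 (without induced replicate 3) to 0.688, and Srebf2 from -0.056 (without uninduced replicate 3) to 0.109, with -0.023 without induced replicate 3. Leaving out single libraries aside, 275 of the members' values kept direction and call, 36 lost a call, 4 gained one and 8 changed sign. TPM keeps no depth, so precision for low members cannot be stated.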
